A study of Arabidopsis thaliana with 36 samples.

Results

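Between psbA and trnQ, the chloroplast genome of Arabidopsis thaliana holds trnK, matK and rps16, 3 of the 113 plastid genes measured here after copies in the inverted repeat were merged. They were chosen by name and position, with earlier results of these data known. In TAIR10.1 coordinates, trnK (ArthCt089) spans positions 1717 to 4347 (2631 bp), matK (ArthCp003) spans 2056 to 3570 (1515 bp) and rps16 (ArthCp004) spans 5084 to 6188 (1105 bp). The stretch from trnK to rps16 is 4472 bp long, which is 2.89% of the plastid genome. matK lies wholly inside trnK and covers 57.6% of it, so the values of these genes share coverage and are not independent. psbA (383 to 1444) lies 272 bp from the low-numbered end of trnK, and trnQ (6616 to 6687) lies 427 bp beyond rps16.

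The libraries came from chloroplast chromatin immunoprecipitation after 4 h of crosslinking in 4% formaldehyde (ptChIP), sequenced beside input DNA that was not immunoprecipitated. Leaf libraries were made from 14-day-old soil-grown plants of the Col-0 strain, either after 24 h of darkness (Night) or 2 h into the light (Day), with antibody to RpoB. Seedling libraries came from the lines sig2-2, chl27 and chlm and from the reference line Col0, grown in continuous light. Their titles give an age of 4 days and the extraction protocol one of 4 to 5 days. Each of the 6 plant groups had 3 ChIP and 3 input libraries, 36 in all. The seedling labels name no antibody and give wild type as the genotype of every line. The lines were therefore taken from the titles, and their mutated genes, which are nuclear, could not be checked in plastid coverage. Nothing in the labels says that replicates came from separate cultures or harvests, so the p-values measure the spread between these libraries only.

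RpoB belongs to the catalytic core of the chloroplast's own RNA polymerase, a bacterial-type enzyme that needs a sigma factor to start at a promoter. SIG2, affected in sig2-2, is a nucleus-encoded sigma factor known mainly for transcription of plastid tRNA genes, and CHL27 and CHLM are enzymes of chlorophyll synthesis. trnK encodes the lysine tRNA. Its exons are split by a group II intron, and matK, the gene of an intron maturase that assists splicing of several plastid introns, lies within that intron. rps16 encodes a protein of the small ribosomal subunit and has an intron of its own. By textbook knowledge, psbA, trnK, matK, rps16 and trnQ are all read from the high to the low coordinate, so trnK lies upstream of psbA in the sense of transcription and the 5′ end of trnK is at position 4347. The gene table used here gives neither strand nor exons.

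Mean coverage per plastid position was 102 to 480 reads in Night ChIP libraries and 425 to 1039 in Day ChIP libraries, 1380 to 2893 in seedling ChIP libraries, 1017 to 1395 in leaf inputs and 1132 to 3165 in seedling inputs. The Night libraries were thus the shallowest ChIP group, with replicate 1 lowest at 102. Relative coverage is the mean coverage of a gene divided by the plastid average of its library, so that 1 is the average position. Enrichment is the log2 value of a ChIP library less the mean log2 over its group's inputs, and 0 means that a gene holds the same share of the ChIP as of the input. Because these are shares of a fixed total, a strong gain elsewhere lowers them, and each change is also given against the median of all genes.

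Relative to the plastid total, trnK was enriched over input in chl27, chlm and Col0 seedlings, it did not pass the test in sig2-2 seedlings or in leaves, and rps16 was below input in every plant group. In chl27 seedlings, relative coverage of trnK was 1.72, 1.43 and 1.32 in ChIP libraries, against 1.01, 1.00 and 1.01 in inputs. In chlm seedlings it was 1.61, 1.65 and 1.53 in ChIP libraries, against 0.985, 1.01 and 0.994 in inputs. In Col0 seedlings it was 1.68, 1.42 and 1.51 in ChIP libraries, against 1.00, 1.00 and 1.02 in inputs. All 9 ChIP libraries of these 3 lines lay above every input of their own group. In sig2-2 seedlings the ChIP libraries gave 1.01, 0.931 and 0.985, against 1.03, 1.01 and 1.05 in inputs.
In leaves, trnK stood at 0.747, 0.887 and 0.848 in Night ChIP libraries, against 0.949, 0.954 and 0.972 in Night inputs. In Day leaves it stood at 0.883, 1.03 and 0.853 in ChIP libraries, against 0.961, 0.940 and 0.879 in inputs. The Night ChIP libraries therefore all lay below their inputs, and the Day ChIP libraries lay on both sides of theirs.

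**Figure D1:**
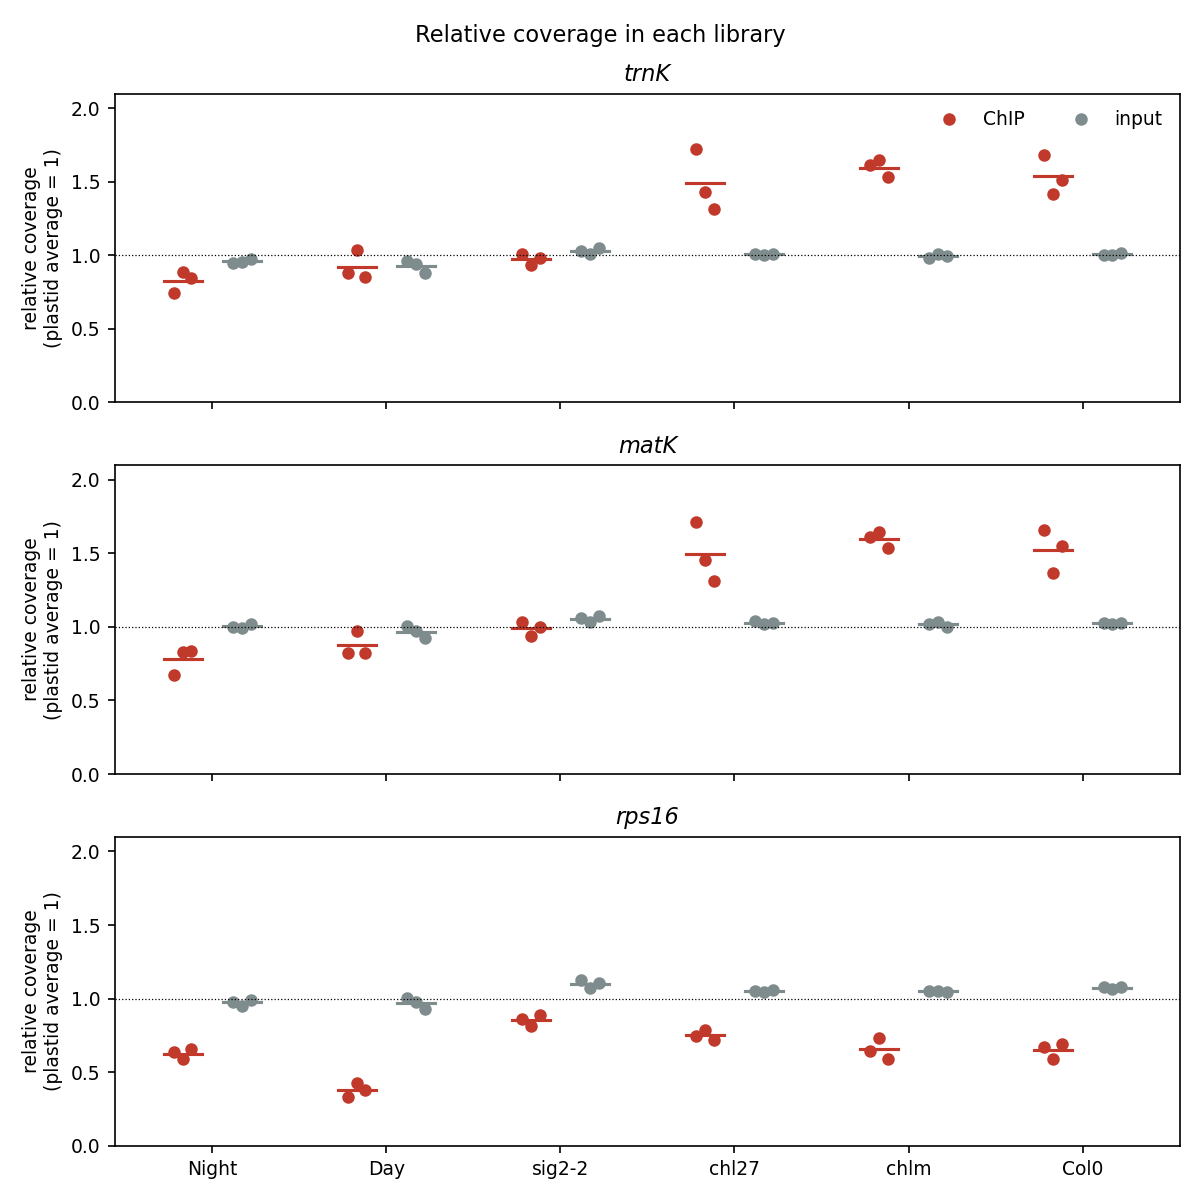
Relative coverage of trnK, matK and rps16 (vertical axis, plastid average = 1) in each ChIP library (red) and input library (grey) of the 6 plant groups, with bars at the means of 3 libraries. Inputs stay between 0.879 and 1.13, ChIP libraries of chl27, chlm and Col0 rise above them at trnK and matK, and ChIP libraries of every group fall below them at rps16.

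As log2 ChIP/input, enrichment of trnK was -0.22 ± 0.13 in Night leaves and -0.01 ± 0.15 in Day leaves (SD, n = 3 each). In seedlings it was -0.08 ± 0.06 in sig2-2, 0.56 ± 0.20 in chl27, 0.68 ± 0.06 in chlm and 0.61 ± 0.12 in Col0 (SD, n = 3 each). ChIP was above input in chl27, chlm and Col0 (limma, adjusted p = 2.9e-09, 1.2e-11 and 2.7e-10), and the difference did not pass the threshold of 0.05 in Night leaves, Day leaves or sig2-2 (adjusted p = 0.067, 0.932 and 0.285). Without Night replicate 2 of the ChIP, the Night value was -0.27 and passed (adjusted p = 0.034), and without Day replicate 1 or 3 of the ChIP, or Day input replicate 1 or 2, the Day value lay between 0.001 and 0.045. In the order of the seedling means, chlm, Col0 and chl27 overlapped as neighbours and sig2-2 lay apart below them.

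matK, the maturase gene inside the trnK intron, shares coverage with trnK and had similar values in seedlings and lower means in leaves. Its enrichment was -0.38 ± 0.17 in Night leaves, -0.15 ± 0.14 in Day leaves, -0.09 ± 0.07 in sig2-2, 0.53 ± 0.19 in chl27, 0.65 ± 0.05 in chlm and 0.57 ± 0.14 in Col0 (SD, n = 3 each). It passed the test as enriched in chl27, chlm and Col0 (limma, adjusted p = 1.2e-08, 6.3e-11 and 1.8e-09). In Night leaves it was below input (adjusted p = 0.0027), with relative coverage of 0.675, 0.826 and 0.834 in ChIP libraries, against 1.00, 0.995 and 1.02 in inputs. Centred on the median gene, the Night value was 0.02 and did not pass (adjusted p = 0.85), and with coverage outside the inverted repeats it was -0.42 and passed. In Day leaves and in sig2-2 it did not pass (adjusted p = 0.20 and 0.25), although the Day value passed, at -0.23, without Day replicate 2 of the ChIP.

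rps16, the ribosomal protein gene, was depleted in all 18 ChIP libraries relative to their inputs. Relative coverage was 0.636, 0.588 and 0.654 in Night ChIP libraries, against 0.975, 0.951 and 0.994 in Night inputs. In Day leaves it was 0.330, 0.428 and 0.381 in ChIP libraries, against 1.01, 0.976 and 0.932 in inputs. The Day ChIP libraries were the lowest of the 18 and did not overlap with the Night ones.
In seedlings, rps16 ChIP coverage was 0.863, 0.816 and 0.886 in sig2-2, 0.747, 0.789 and 0.720 in chl27, 0.647, 0.732 and 0.586 in chlm, and 0.670, 0.591 and 0.690 in Col0. All 12 seedling inputs were higher, with group means of 1.10 in sig2-2, 1.05 in chl27, 1.05 in chlm and 1.07 in Col0.
Enrichment was -0.64 ± 0.08 in Night leaves, -1.36 ± 0.19 in Day leaves, -0.37 ± 0.06 in sig2-2, -0.48 ± 0.07 in chl27, -0.69 ± 0.16 in chlm and -0.73 ± 0.12 in Col0 (SD, n = 3 each). Each of the 6 differences passed the test, with limma adjusted p from 5.8e-13 in Day leaves to 2.6e-05 in sig2-2. With libraries centred on the median gene, the calls in Night leaves (-0.24, adjusted p = 0.0504) and chlm (-0.09, adjusted p = 0.084) were lost. In the order sig2-2, chl27, chlm and Col0, every pair of neighbours overlapped in its replicates.

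**Figure D2:**
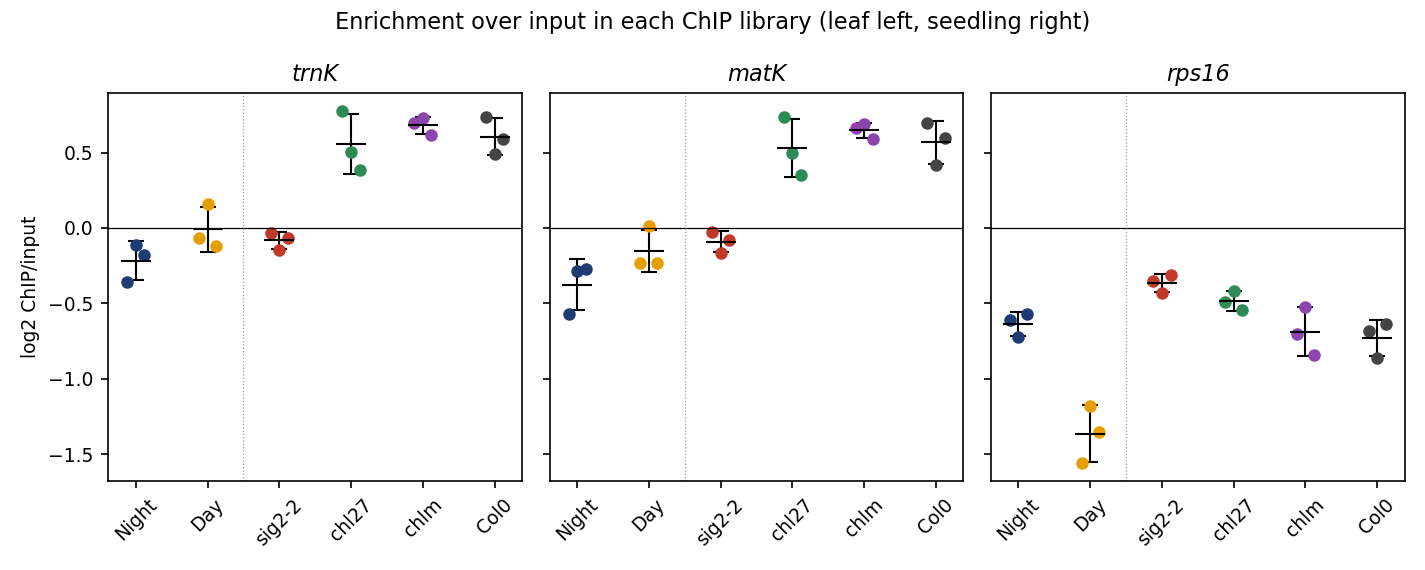
Enrichment over input (log2 ChIP/input, vertical axis) of trnK, matK and rps16 in each of the 18 ChIP libraries, with mean and SD bars over 3 libraries per plant group (leaf groups left of the dotted line, seedling groups right of it). trnK and matK are above 0 in chl27, chlm and Col0, and rps16 is below 0 in every library, lowest in Day leaves.

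These calls stand among many. Of the 113 genes, 88.5% passed in Night leaves, 92.9% in Day leaves, 83.2% in sig2-2, 89.4% in chl27, 91.2% in chlm and 92.0% in Col0, so passing the test in itself sets none of the 3 genes apart. Genes above input made up 35.4%, 33.6%, 31.9%, 35.4%, 34.5% and 36.3% in the same order of groups, and genes below input 53.1%, 59.3%, 51.3%, 54.0%, 56.6% and 55.8%. With libraries centred on the median gene, the genes above and below input numbered 51 and 47 in Night leaves, 53 and 51 in Day leaves, 46 and 44 in sig2-2, 53 and 52 in chl27, 55 and 51 in chlm and 55 and 53 in Col0, against 40 and 60, 38 and 67, 36 and 58, 40 and 61, 39 and 64, and 41 and 63 relative to the plastid total. The median enrichment of all genes was -0.35 in Night leaves, -0.85 in Day leaves, -0.17 in sig2-2, -0.36 in chl27, -0.59 in chlm and -0.50 in Col0. Against that median, a difference that library scaling leaves nearly unaltered, trnK stood at 0.14 in Night leaves, 0.84 in Day leaves, 0.09 in sig2-2, 0.91 in chl27, 1.27 in chlm and 1.11 in Col0. rps16 stood at -0.28, -0.51, -0.19, -0.13, -0.09 and -0.23 in the same groups, close to the middle of the genes in most of them. With coverage scaled outside the inverted repeats, or centred on the median gene, the Day values of trnK turned positive and passed the test, at 0.38 and 0.93, and so did those of matK, at 0.24 and 0.79. The values of trnK in sig2-2 changed sign too, at 0.03 and 0.11, as did those of matK, at 0.02 and 0.10, and so did that of trnK in Night leaves when centred, at 0.18.

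Ranks, which do not depend on scaling, placed trnK 53rd of 113 genes in Night leaves, 42nd in Day leaves, 48th in sig2-2, 33rd in chl27, 32nd in chlm and 34th in Col0, counted from the most enriched. Among the 30 tRNA genes trnK was last in both leaf groups and 25th to 28th in the seedling groups. matK ranked 3rd of 79 protein-coding genes in chl27, chlm and Col0, 20th in sig2-2, 24th in Night leaves and 12th in Day leaves. rps16 ranked 68th of 113 in Night and in Day leaves, 79th in sig2-2, 62nd in chl27 and in chlm, and 65th in Col0.

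The profile in 100 bp windows showed where within the stretch the ChIP signal lay. From the psbA side, enrichment in Col0 was 2.21 in the window at positions 1401 to 1500, over the 5′ end of psbA, the gene of the D1 protein of photosystem II. It was 0.45 at 1701 to 1800, over the low-numbered 3′ end of trnK, and 0.08 at 1901 to 2000. In Night leaves the same 3 windows gave 2.37, -0.08 and -0.70, and in Day leaves 2.53, 0.16 and -0.44. Within matK a low rise centred on 2701 to 2800 reached 0.01 in Night leaves, 0.30 in Day leaves, 0.03 in sig2-2, 0.71 in chl27, 0.85 in chlm and 0.89 in Col0.

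The highest point of the stretch lay at the 5′ end of trnK, outside the gene. Of the 18 ChIP libraries, 14 had their highest window at 4401 to 4500. It begins 54 bp and ends 153 bp beyond the highest-numbered base of trnK. In 4 libraries the highest window was the neighbouring one at 4301 to 4400, which spans that base. Enrichment at 4401 to 4500 was 1.38, 1.70 and 0.96 in the 3 Night libraries and 1.00, 1.52 and 0.96 in the 3 Day libraries. In seedlings its mean was 0.15 ± 0.13 in sig2-2, 1.24 ± 0.11 in chl27, 1.53 ± 0.10 in chlm and 1.51 ± 0.14 in Col0 (SD, n = 3 each). The leaf means, 1.35 in Night and 1.16 in Day leaves, lay near that of chl27, in a table fitted apart from the seedlings. Since these windows were picked as the highest, their enrichment is given as a description.

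Beyond that point the signal dropped within 200 bp. At 4601 to 4700, enrichment was 0.28 in Night leaves, -0.51 in Day leaves, -0.53 in sig2-2, -0.51 in chl27, -0.26 in chlm and -0.77 in Col0. The spacer between trnK and rps16 was also thinly covered in inputs, and at 4701 to 4800 relative input coverage was only 0.106 in Night leaves, 0.0859 in Day leaves, 0.340 in sig2-2, 0.338 in chl27, 0.281 in chlm and 0.359 in Col0. Ratios in these windows rest on thin coverage, and the leaf replicates spread widely there. Over rps16 itself the profile was low throughout, with window means of -0.91 to -0.53 in Col0 and of -1.66 to -1.11 in Day leaves. It climbed again only beyond rps16, to 2.64 in Night leaves, 2.08 in Day leaves, 0.89 in sig2-2, 1.70 in chl27, 2.16 in chlm and 2.06 in Col0 at 6601 to 6700, over trnQ, the glutamine tRNA gene.

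**Figure D3:**
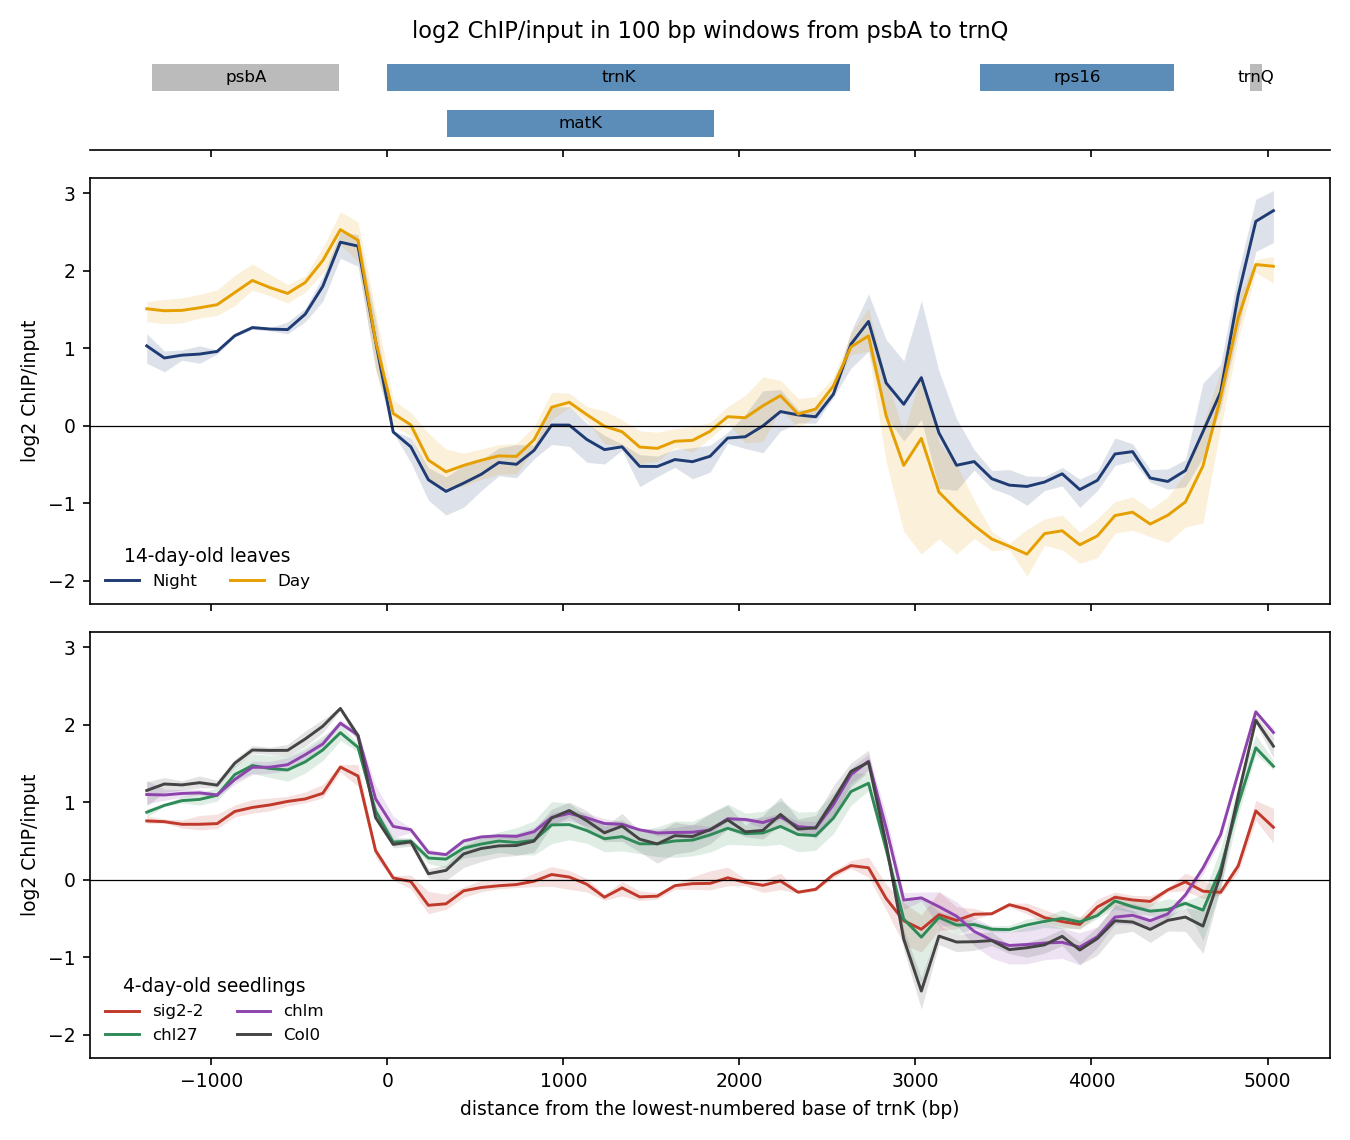
Enrichment in 100 bp windows (log2 ChIP/input, vertical axis) against distance from the lowest-numbered base of trnK (horizontal axis, bp), for leaf groups (middle) and seedling groups (bottom), with gene spans on top. Lines are means of 3 ChIP libraries and shaded bands run from the lowest to the highest library. Signal is high at the 5′ end of psbA, low over trnK and matK in leaves, peaks just beyond the 5′ end of trnK, least in sig2-2, and stays below 0 over rps16.

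Of the 45 windows of the stretch, 4 were above and 27 below input in Night leaves, 5 above and 20 below in Day leaves, 29 above and 16 below in chl27, 29 above and 14 below in chlm, and 27 above and 16 below in Col0. In sig2-2, 0 were above and 20 below (limma, 21 at an unadjusted p under 0.05). Over the whole genome, windows above input made up 24.9% in Night leaves, 22.6% in Day leaves, 21% in sig2-2, 25% in chl27, 25.7% in chlm and 24.7% in Col0. The windows below input were 64.7%, 68.9%, 62.8%, 69.3%, 70.3% and 70.1% in the same groups. All 15 matK windows were above input in chl27, chlm and Col0, and all 11 rps16 windows were below it in every group except sig2-2, where 10 were. With the replicate number as a block, 1 window of sig2-2 was above input. In sig2-2, 1 window was above input without ChIP replicate 2 and 2 were without input replicate 1. In Day leaves, 3 were above without ChIP replicate 2 and 10 without ChIP replicate 3.

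Ratios between genes of one library need no scaling, since the library total cancels. The log2 ratio of trnK to rps16 coverage was 0.23, 0.59 and 0.37 in Night ChIP libraries, against -0.04, 0.00 and -0.03 in Night inputs. It was 1.42, 1.27 and 1.16 in Day ChIP libraries, against -0.07, -0.05 and -0.08 in Day inputs. In seedling ChIP libraries it averaged 0.19 ± 0.03 in sig2-2, 0.98 ± 0.20 in chl27, 1.29 ± 0.11 in chlm and 1.24 ± 0.10 in Col0 (SD, n = 3 each), and the input means were -0.10, -0.06, -0.08 and -0.09 in those lines. ChIP and input did not overlap in any of the 6 groups, and each gave p = 0.1 in an exact two-sided permutation test, the smallest that 3 against 3 libraries allow.

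Inside trnK, coverage was uneven as well. The part of the gene between its 5′ end and matK (3571 to 4347) was set against the part between matK and its 3′ end (1717 to 2055). In ChIP libraries the log2 ratio of the first to the second was 0.55 ± 0.17 in Night leaves, 0.45 ± 0.03 in Day leaves, 0.11 ± 0.09 in sig2-2, 0.32 ± 0.22 in chl27, 0.32 ± 0.02 in chlm and 0.48 ± 0.13 in Col0 (SD, n = 3 each). Input means ran from -0.01 to 0.03. Again no ChIP value overlapped with the inputs of its group (exact two-sided permutation p = 0.1 in each). In sig2-2 the gap was narrow, with the lowest ChIP value at 0.016 and the highest input value at 0.011.

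**Figure D4:**
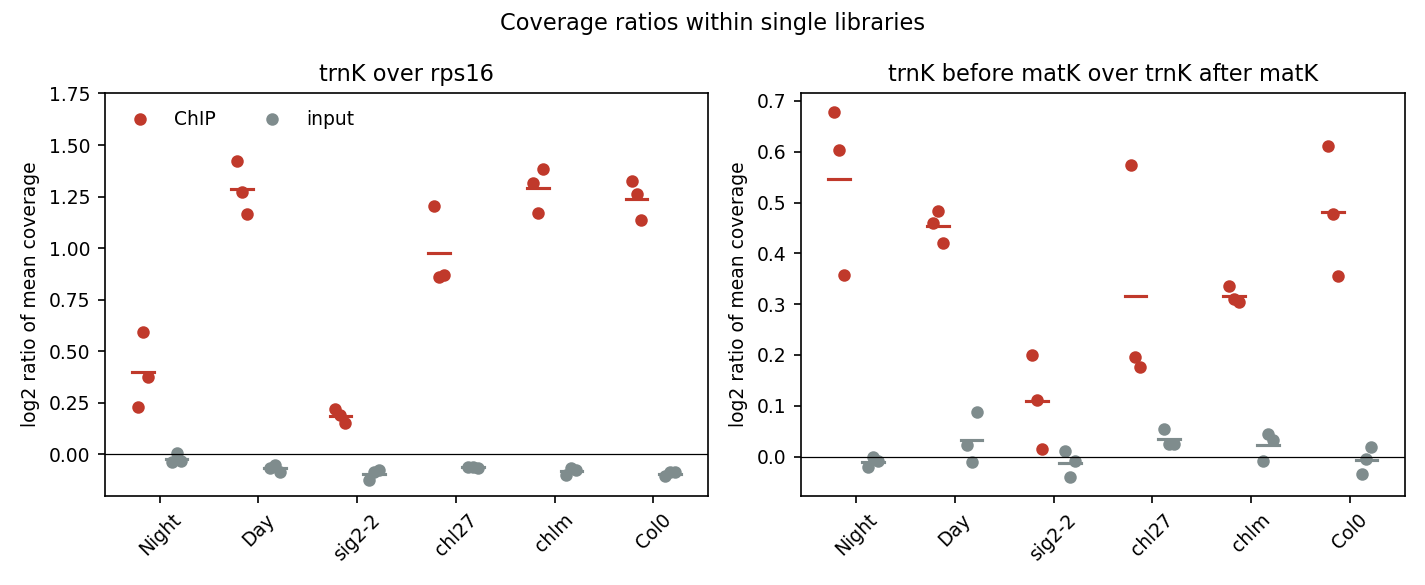
Log2 ratios of mean coverage within single libraries (vertical axes) for trnK over rps16 (left) and for the 5′ part of trnK, before matK in the sense of transcription, over its 3′ part, after matK (right), in ChIP (red) and input (grey) libraries with bars at the means of 3. The trnK to rps16 ratio of Night and sig2-2 ChIP libraries lies well below that of Day and Col0, while inputs stay near 0.

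Between Night and Day leaves, rps16 rose in share while trnK and matK did not pass the test. Relative to the plastid total, rps16 was higher by 0.73 ± 0.17 (log2 ± SE, limma adjusted p = 2.6e-04), or 1.65-fold. The changes of trnK, -0.21 ± 0.16, and of matK, -0.22 ± 0.16, did not pass (adjusted p = 0.236 and 0.206). Of all genes 70.8% passed, 58.4% higher and 12.4% lower, and the median gene was itself 0.53 higher, so the 1 of 3 called is no more than the background.
Against that median, trnK stood at -0.74, matK at -0.76 and rps16 at 0.19. Other scalings moved the median gene by -0.55 when libraries were centred on it and by -0.44 when coverage outside the inverted repeats was the total, and the genes called higher and lower then numbered 35 and 37, and 41 and 30, against 66 and 14 relative to the plastid total. Under them trnK fell by 0.76 (adjusted p = 8.1e-05) and by 0.65 (adjusted p = 5.4e-04), matK fell by 0.78 (adjusted p = 1.2e-04) and by 0.67 (adjusted p = 9.7e-04), and the value of rps16, 0.17 and 0.29, no longer passed (adjusted p = 0.331 and 0.154).

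What did not depend on scaling was the ratio between the genes. Over input, the log2 trnK to rps16 ratio averaged 0.42 ± 0.18 in Night leaves and 1.35 ± 0.13 in Day leaves (SD, n = 3 each), a difference of -0.93. The groups did not overlap (exact two-sided permutation p = 0.1, the smallest possible). The matK to rps16 ratio differed by -0.95, also without overlap and at the same p. The window at 4401 to 4500, by contrast, gave a change of 0.19 ± 0.23 (log2 ± SE, adjusted p = 0.470), which turned to -0.74 when libraries were centred on the median window and to -0.25 with coverage outside the repeats. The 5′ to 3′ ratio within trnK overlapped between Night and Day leaves (difference 0.13, exact permutation p = 0.4). Of the 45 windows, 11 were higher in Night leaves, 10 of them among the 11 of rps16, and none was lower (limma, 34 not called), against 75.3% called over the genome, 62.2% higher and 13.1% lower. With libraries centred on the median window 0 were higher and 29 lower, and with coverage outside the repeats 0 were higher and 27 lower. Genome shares under these other scalings are not given here. Without Day ChIP replicate 3, 4 windows were lower, and without Night ChIP replicate 2, 5 were.

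In sig2-2 seedlings, trnK and matK fell and rps16 rose relative to Col0. trnK changed by -0.69 ± 0.10 (log2 ± SE, limma adjusted p = 1.4e-07), or 0.621-fold. matK changed by -0.66 ± 0.10 (adjusted p = 3.2e-07) and rps16 by 0.36 ± 0.10 (adjusted p = 0.0016). No sig2-2 library overlapped with a Col0 library for trnK. All 3 passed, against 86.7% of all genes, of which 53.1% were higher and 33.6% lower (60 and 38 genes, and 50 of each when centred on the median gene).
The median gene was 0.36 higher, and rps16 was that median gene. Against the median, trnK stood at -1.05 and matK at -1.02. The fall of trnK and matK held with libraries centred on the median gene (-1.03 and -1.0) and with coverage outside the repeats (-0.79 and -0.76). The rise of rps16 held with coverage outside the repeats, at 0.26 (adjusted p = 0.0021), and not with centred libraries, at 0.02 (adjusted p = 0.77).

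The log2 trnK to rps16 ratio over input was 0.28 ± 0.03 in sig2-2 and 1.33 ± 0.10 in Col0 (SD, n = 3 each). The difference was -1.05, with no overlap (exact two-sided permutation p = 0.1, the smallest possible). Within trnK the 5′ to 3′ ratio over input was 0.12 ± 0.09 in sig2-2 and 0.49 ± 0.13 in Col0, a difference of -0.37 without overlap at the same p.
The window beyond the 5′ end of trnK had the largest change of the 45 windows. At 4401 to 4500, relative ChIP coverage was 1.04, 0.967 and 1.16 in sig2-2, against 2.36, 2.85 and 2.51 in Col0, and the change was -1.36 ± 0.11 (log2 ± SE). This window was named after its values were seen. It stayed between -1.43 and -1.29 when any 1 of the 12 libraries was left out, and was -1.46 and -1.96 under the other scalings. All 26 windows of trnK were lower in sig2-2, 15 of them in matK, and 10 of 11 windows of rps16 were higher. Over the 45 windows, 29 were lower and 11 higher, against 21.4% and 68.6% over the genome. Centred on the median window, 39 were lower and 0 higher, and with coverage outside the repeats 29 were lower and 10 higher. The genome shares above hold for the plastid total. Those under the other scalings are not given here, so these counts cannot be told from a shift of the whole genome.

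In chl27 seedlings the stretch moved little relative to the plastid total. rps16 was 0.24 ± 0.10 higher than in Col0 (log2 ± SE, limma adjusted p = 0.046), and trnK and matK gave -0.05 ± 0.10 and -0.04 ± 0.10 (adjusted p = 0.70 and 0.77). Of all genes 54.0% passed, 40.7% higher and 13.3% lower (46 and 15 genes, 35 and 28 when centred on the median gene, and 35 and 25 with coverage outside the repeats). The median gene was 0.16 higher, and against it trnK stood at -0.21, matK at -0.20 and rps16 at 0.08. The call of rps16 was lost with libraries centred on the median gene (0.08), with coverage outside the repeats (0.13) and in 8 of 12 fits without 1 library (chl27 ChIP replicate 2, Col0 ChIP replicate 2 or any of the 6 inputs). Over the 12 fits it ranged from 0.18 to 0.29. Without chl27 ChIP replicate 3 or Col0 ChIP replicate 1, the values of trnK (0.036 and 0.017) and matK (0.049 and 0.025) were above 0. The trnK to rps16 ratio overlapped between chl27 and Col0 (difference -0.29, exact permutation p = 0.2). The matK to rps16 ratio had nearly the same difference, -0.28, and just failed to overlap (exact permutation p = 0.1). Over input, its highest chl27 value was 1.230 and its lowest Col0 value 1.235.
Of the 45 windows, 5 were higher, all in rps16, and 1 was lower, the one at 4401 to 4500 (-0.27 ± 0.11, adjusted p = 0.036). Over the genome 53.4% were higher and 11.7% lower. Centred on the median window, 0 were higher and 11 lower, and with coverage outside the repeats 1 was higher and 4 were lower. Genome shares are not given here for those scalings. With the replicate number as a block, 2 windows were lower. With single libraries left out, higher windows ranged from 0 to 7, with 2 or fewer in 9 of 12 fits. Lower ones numbered 10 without chl27 ChIP replicate 1, 3 without Col0 ChIP replicate 3, and 0 in 7 of 12 fits, in which the window at 4401 to 4500 no longer passed.

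In chlm seedlings none of the 3 genes passed, with changes of 0.08 ± 0.10 for trnK, 0.08 ± 0.10 for matK and 0.04 ± 0.10 for rps16 (log2 ± SE, limma adjusted p = 0.98 each, 0 at an unadjusted p under 0.05). No gene of the 113 passed in this comparison (0.0%, 8 at an unadjusted p under 0.05). The median gene was 0.02 higher, and against it trnK stood at 0.05, matK at 0.05 and rps16 at 0.01. None of the 45 windows passed, with 6 at an unadjusted p under 0.05, of which 3 lay in trnK between matK and its 3′ end and 3 in the spacer to rps16. The 5′ to 3′ ratio within trnK was 0.29 ± 0.02 over input in chlm and 0.49 ± 0.13 in Col0 (SD, n = 3 each), without overlap (difference -0.20, exact permutation p = 0.1).

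**Figure D5:**
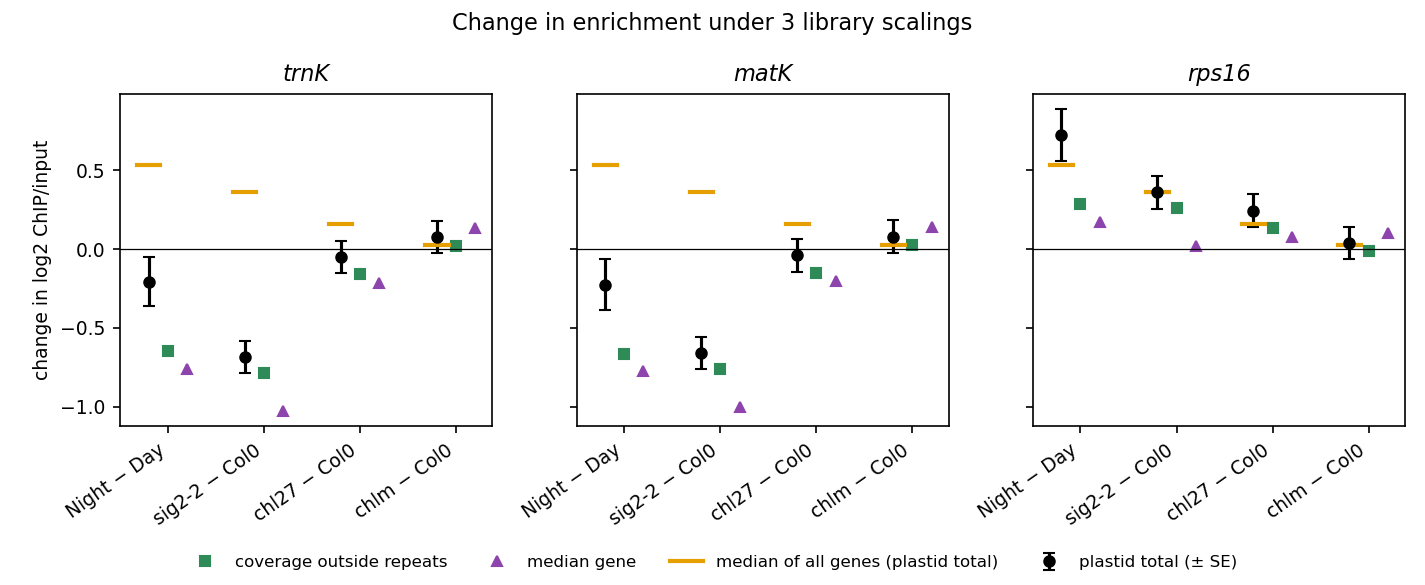
Change in log2 ChIP/input of trnK, matK and rps16 (vertical axis) for Night minus Day leaves and for sig2-2, chl27 and chlm minus Col0 seedlings. Black points with SE bars are relative to the plastid total, squares to coverage outside the inverted repeats and triangles to the median gene, and orange bars mark the median of all genes under the first scaling. In sig2-2, trnK and matK lie between -1.03 and -0.66 under all 3, and the Night value of rps16 drops to 0.17 when centred.

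Inputs gave no difference that passed for the 3 genes in Night against Day leaves or in any line against Col0 (limma, 0 called and 0 at an unadjusted p under 0.05 in each of 4 comparisons). Over all 113 genes, 0.0% passed in each, in fits whose estimate of spread is shared with the ChIP libraries. Fitted to the input libraries only, 15 of the 113 genes passed in Night leaves, 15 in sig2-2, 2 in chl27 and 14 in chlm. With only the groups of the comparison, 15, 16, 4 and 11 passed in the same order. Inputs thus differed at some genes. None of these 3 passed in those fits, which does not show that their inputs were equal.

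Of the flanking genes, psbA changed by -0.49 ± 0.15 in Night leaves, -0.66 ± 0.10 in sig2-2, -0.23 ± 0.10 in chl27 and -0.18 ± 0.10 in chlm (log2 ± SE), and the first 3 passed (limma, adjusted p = 0.0033, 2.4e-07 and 0.049). Its value in sig2-2 stood beside -0.69 for trnK and -0.66 for matK. Relative to the plastid total, trnQ rose by 0.56 ± 0.17 in Night leaves (adjusted p = 0.0037), where trnK gave -0.21. This value lay 0.02 from the median of all genes and did not pass when centred on the median gene (0.01, adjusted p = 0.97) or with coverage outside the repeats (0.12, adjusted p = 0.61). In sig2-2 trnQ changed by -1.17 ± 0.11 (adjusted p = 4.7e-12), and in chl27 by -0.36 ± 0.11 (adjusted p = 0.0075), while rps16, between trnK and trnQ, rose in both lines relative to the plastid total (0.36 and 0.24), a call lost in both when centred and in chl27 with coverage outside the repeats. The change of trnQ in chlm, 0.11 ± 0.11, did not pass. These changes share their control libraries and are set side by side only.

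Among genes related by class, the 5 other tRNA genes whose span exceeds 200 bp and so holds an intron (trnA, trnG ArthCt092, trnI, trnL and trnV) were more enriched than trnK in most groups. All 5 were above input in Night leaves, Day leaves, chl27, chlm and Col0, with medians of 1.35, 1.61, 1.39, 1.65 and 1.71, against -0.22, -0.01, 0.56, 0.68 and 0.61 for trnK. Over all genes, 35.4%, 33.6%, 35.4%, 34.5% and 36.3% were above input in these groups. In sig2-2, 4 were above and 1, trnV, below input, with a median of 0.62, where 31.9% of all genes were above. Under both other scalings 4 were above and 0 below input in sig2-2. Over all genes, 40.7% were then above and 38.9% below when centred on the median gene, and 35.4% and 40.7% with coverage outside the repeats. Their enrichment in Day leaves ran from 0.85 for trnL, a leucine tRNA gene, to 1.77 for trnA, an alanine tRNA gene, which lies in the inverted repeat between rRNA genes.
In sig2-2 against Col0 all 5 fell, by a median of -0.70, from -0.56 for trnA to -1.91 for trnV, the valine tRNA gene, with trnK at -0.69 among them, and all 5 fell under both other scalings too. Over all genes 33.6% fell (44.2% when centred on the median gene and 37.2% with coverage outside the repeats), and the median was 0.36. In Night against Day leaves 1 rose (trnL, 0.49) and 2 fell (trnI, -1.15, and trnA, -0.96), while under both other scalings 0 rose and 3 fell. Over all genes 58.4% rose and 12.4% fell in that comparison. When centred on the median gene 31.0% rose and 32.7% fell, and with coverage outside the repeats 36.3% and 26.5% did. In chl27 2 fell (3 with coverage outside the repeats), and in chlm none passed (limma, 0 at an unadjusted p under 0.05). Over all genes 13.3% fell in chl27 (24.8% when centred and 22.1% with coverage outside the repeats), and 0.0% passed in chlm.

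Like rps16, most of the 11 other rps genes were below input. There were 10 in each of the 6 groups, against 53.1% of all genes in Night leaves, 59.3% in Day leaves, 51.3% in sig2-2, 54.0% in chl27, 56.6% in chlm and 55.8% in Col0. The exception was rps14, which was above input in Day leaves (0.38) and Col0 (0.21). The same count of 10 was found under both other scalings, except for 9 in sig2-2 when centred on the median gene. Over all genes, those below input then ranged over the groups from 38.9% to 46.9% when centred. With coverage outside the repeats they ranged from 40.7% to 54.9%. The medians of the 11 rps genes were -1.0 in Night leaves, -2.08 in Day leaves, -0.51 in sig2-2, -0.80 in chl27, -1.13 in chlm and -1.23 in Col0, all lower than rps16 itself. Relative to the plastid total, 10 rose in Night leaves, with a median of 1.10, 10 in sig2-2, with a median of 0.73, and 9 in chl27, with a median of 0.43. Over all genes 58.4%, 53.1% and 40.7% rose in these comparisons. Centred on the median gene, 6 rose in Night leaves, 8 in sig2-2 and 8 in chl27, and with coverage outside the repeats 7, 10 and 8 did, with 1 falling in each case. Over all genes 31.0%, 44.2% and 31.0% rose when centred, and 36.3%, 53.1% and 31.0% with coverage outside the repeats. Genes that fell made up 32.7%, 44.2% and 24.8% when centred, and 26.5%, 37.2% and 22.1% with coverage outside the repeats. Relative to the plastid total, rps16 changed by 0.73, 0.36 and 0.24 in these comparisons. None passed in chlm (limma, 0 at an unadjusted p under 0.05).

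MatK is known from tobacco to bind the introns of trnK, trnI, trnA, trnV, rpl2, atpF and rps12. The 6 of these other than trnK did not move as one with matK. In Col0, 3 tRNA genes were above input, and rpl2 (-1.31), atpF (-1.09) and rps12 (-1.71, over a listed span of 114 bp) were below, while matK stood at 0.57. The gene table gives no exons, so whether that span of rps12 holds the bound intron was not checked. In sig2-2 against Col0 the 3 tRNA genes fell, and rpl2 (0.99), atpF (0.78) and rps12 (1.13) rose. In Night against Day leaves 3 rose (2 when centred on the median gene), 2 fell and trnV (0.20) did not pass, and in chl27 3 rose and 2 fell. Over all genes, 58.4% rose and 12.4% fell in Night leaves (31.0% and 32.7% when centred). In sig2-2 53.1% of all genes rose and 33.6% fell, and in chl27 40.7% and 13.3% did. In Col0 36.3% of all genes were above and 55.8% below input. In chlm none passed (limma, 0 at an unadjusted p under 0.05).

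The genes whose enrichment was most like that of each gene were found by the root mean square difference of group means over the 6 plant groups, leaving out overlapping genes. For trnK these were psbZ (0.32), psbI (0.33) and trnS ArthCt125 (0.37), against a median of 1.19 over the other genes. All differed less between sig2-2 and Col0 than trnK, which stood at -0.08 and 0.61. psbZ stood at 0.20 and 0.31, psbI at 0.33 and 0.64, and trnS at -0.09 and 0.18. psbZ and psbI encode small subunits of photosystem II. For matK they were psbZ (0.36), trnS ArthCt125 (0.41) and petN (0.41), a small subunit gene of the cytochrome b6f complex, against a median of 1.22. petN stood at 0.24 in sig2-2 and 0.10 in Col0, where matK stood at -0.09 and 0.57. rps16 had much closer matches, namely rps4 (0.05), cemA (0.08), a gene of the chloroplast envelope membrane, and psbL (0.10), against a median of 0.76. rps4 had an enrichment of -0.72 in Night leaves, -1.30 in Day leaves, -0.36 in sig2-2, -0.52 in chl27, -0.74 in chlm and -0.78 in Col0.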

How the data were processed

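Chloroplast ChIP and input libraries were analysed from leaves (12) and seedlings (24), with 3 replicates in each of 12 groups taken from the titles. The authors deposited whole-number coverage per plastid position (154477 positions), a signal without library scaling, in 1 leaf and 1 seedling table. Per the submitters' processing notes, Trim Galore 0.4.1, Bowtie2 2.2.8.9, bedtools 2.25.0 and the build TAIR10 were used. Per the file headers the leaf positions follow TAIR10, and the seedling header names no build. Handling of duplicates and of reads in the inverted repeat is not given in the sources used here. How many reads a value rests on is unknown. No counting interval can be given, and errors come from replicates alone.

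Gene spans came from the RefSeq table of TAIR10.1: 129 entries became 113 genes after copies mirrored within 10 bp were merged. Mean coverage per gene or 100 bp window was divided by the library total, scaled to 1000000 and expressed per kb. After adding 1, log2 values were compared with limma 3.58.1 in R 4.3.3 (group means, trended eBayes, Benjamini-Hochberg over 113 genes or 1544 windows, threshold 0.05), tables separately. The spread of a gene or window was estimated jointly over all ChIP and input libraries of a table. Inputs varied less between replicates (SD over 1 kb bins 0.05 to 0.14 in leaves, against 0.20 to 0.45 for ChIP), so SEs and p-values do not reflect the ChIP spread alone. Fold changes are on the log2(value + 1) scale. The fits were tested on simulated data. Within-library ratios used exact permutation tests (scipy 1.17.1). Alternatives were pseudocounts of 0.1 and 10, other scalings, window sizes and fits, and single libraries left out.

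The text names the 3 genes, flanking psbA and trnQ, 3 genes of most similar enrichment for each, and 3 lists (rps genes, tRNA genes over 200 bp, MatK targets known from tobacco). Genes and lists were chosen with earlier results of these data known. Same-numbered libraries deviated together (every correlation over 0.1) in 3 of 14 group pairs, namely Day ChIP with Day input, sig2-2 ChIP with sig2-2 input and sig2-2 ChIP with Col0 ChIP. The labels give no other sign of pairing.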

Additional observations from a re-analysis of the deposited data

Results flagged for a closer look

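The difference between plant groups was itself tested for 12 values, and 5 of them passed the threshold. Over all genes, 70.8% passed in Night against Day leaves, 86.7% in sig2-2, 54.0% in chl27 and 0.0% in chlm. rps16 was 0.73 higher in Night than in Day leaves, a change of log2 ChIP/input that lay above the Day mean in 3 of 3 Night libraries. In sig2-2 against Col0 seedlings, trnK changed by -0.69, matK by -0.66 and rps16 by 0.36. In chl27 against Col0, rps16 changed by 0.24. The values of trnK and matK in sig2-2 kept their call under each scaling tried. Those of rps16 passed in Night leaves and in chl27 only relative to the plastid total, and in sig2-2 relative to the plastid total and to coverage outside the repeats. The depth of the libraries moved with the leaf groups, at 102 to 480 reads per position in Night ChIP and 425 to 1039 in Day ChIP, and its part in these values was not tested. Groups of 3 libraries are too small to test for a single library that stands apart.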

How the results depend on the processing

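Directions and calls were compared under pseudocounts of 0.1 and 10, 2 other scalings, genes of at least 300 bp, only the groups of a comparison, the replicate block, trnK without the matK span, windows of 50 and 200 bp, and each library left out. Both pseudocounts left every gene call the same. Within-library ratios held in 144 of 144 values for ChIP against input and in 165 of 168 for differences between groups. 0 of 3 genes passed between inputs in each of 56 values.

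With libraries centred on the median gene, Night minus Day was -0.76 for trnK and -0.78 for matK, now past the threshold, and 0.17 for rps16, no longer past it. rps16 also lost its call in sig2-2 minus Col0 (0.022), in chl27 minus Col0 (0.080), and over input in Night leaves (-0.24) and chlm (-0.094). Enrichment then turned positive for trnK in Night leaves (0.18), Day leaves (0.93) and sig2-2 (0.11), and for matK in Night leaves (0.018), Day leaves (0.79) and sig2-2 (0.10). With coverage outside the inverted repeats, Night minus Day was -0.65 for trnK and -0.67 for matK, past the threshold, and 0.29 for rps16, not past it. rps16 was 0.13 in chl27 minus Col0, not past it, and -0.013 in chlm minus Col0. Enrichment was 0.38 for trnK and 0.24 for matK in Day leaves, 0.033 and 0.024 in sig2-2, and -0.27 for trnK in Night leaves, past the threshold. trnK in Night leaves, at -0.22, also passed among genes of at least 300 bp and with only the groups of the comparison. Without the matK span, trnK in Day leaves was 0.18.

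Window counts under the other scalings are given without the share over the genome, so a shift of all windows cannot be told from one of the stretch. With windows centred on the median window, windows above input numbered 29 in Night leaves, 39 in Day leaves and 21 in sig2-2. Windows below input numbered 0 in Night leaves, Day leaves, chl27, chlm and Col0, and 2 in sig2-2. Higher windows numbered 0 in Night minus Day, sig2-2 minus Col0 and chl27 minus Col0, and lower ones 29 in Night minus Day and 11 in chl27 minus Col0. With coverage outside the repeats, 18 windows were above and 13 below input in Day leaves, 3 were above in sig2-2, 0 were higher and 27 lower in Night minus Day, and 1 was higher and 4 lower in chl27 minus Col0. Windows of 50 bp gave 2 above input in sig2-2, and windows of 200 bp gave 0 lower in chl27 minus Col0. The window at 4401 to 4500 gave -0.74 and -0.25 in Night minus Day and -0.0045 and -0.040 in chlm minus Col0 under these 2 scalings.

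The replicate block changed the call of 0 of 12 changes and 0 of 18 enrichments, and under it trnK changed by -0.69 in sig2-2 minus Col0. It gave 1 window above input in sig2-2 and 2 lower windows in chl27 minus Col0.

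When single libraries were left out, trnK in chl27 minus Col0 ranged from -0.16 to 0.036, matK from -0.14 to 0.049 and rps16 from 0.18 to 0.29, past the threshold in 4 of 12 fits. rps16 in chlm minus Col0 ranged from -0.044 to 0.12. The ratio over rps16 in chlm minus Col0 ranged from -0.017 to 0.096 for trnK and from -0.0089 to 0.10 for matK, and the window at 4401 to 4500 from -0.047 to 0.090. Enrichment in Day leaves ranged from -0.094 to 0.045 for trnK and from -0.23 to -0.11 for matK, which passed without Day ChIP replicate 2. In Night leaves trnK ranged from -0.27 to -0.14 and passed without Night ChIP replicate 2. Windows above input ranged from 3 to 10 in Day leaves and from 0 to 2 in sig2-2. Lower windows in Night minus Day ranged from 0 to 5. In chl27 minus Col0, higher windows ranged from 0 to 7 and lower ones from 0 to 10. Replicates differed most among leaf ChIP libraries, with an SD of log2 ratios over 1 kb bins of 0.20 to 0.45, against 0.08 to 0.32 among seedling ChIP libraries, so smaller changes could be called in seedlings.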
